A study of Homo sapiens with 66 samples.

Results

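Protein-coding genes of the 4 human HOX clusters, with MEIS1 and PBX3, were described across 11 acute myeloid leukemia (AML) cell lines before and after etoposide. The HOX genes were selected by symbol, as HOXA, HOXB, HOXC or HOXD followed by digits, and no measured value entered this rule. Earlier results of these data were known when the gene set was chosen. The genes described comprised 10 HOXA genes on chromosome 7, 10 HOXB genes on chromosome 17, 9 HOXC genes on chromosome 12 and 9 HOXD genes on chromosome 2, together with MEIS1 on chromosome 2 and PBX3 on chromosome 9. The rule found 41 of the 57992 genes counted, and 40 of them are described.

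HOX genes encode homeodomain transcription factors that lie in 4 clusters, and within a cluster a low paralogue number stands at the 3′ end and a high number at the 5′ end. In normal blood formation the HOXA and HOXB genes are active in stem and progenitor cells and are turned down as cells mature. MEIS1 and PBX3 encode TALE (atypical) homeodomain proteins that bind DNA together with HOX proteins, and joint expression of HOXA9 and MEIS1 is a well-known feature of leukemias with KMT2A fusions or NPM1 mutations. HOXD13 and HOXA9 are also known as fusion partners of NUP98 in AML.

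Poly(A)-selected RNA of the lines THP-1, OCI-AML3, MOLM-13, NB-4, F-36P, NOMO-1, HL-60, MV-4-11, OCI-AML2, KASUMI-1 and MONO-MAC-6 was sequenced in 66 libraries, 3 per group. Untreated groups received medium alone for 24 hours, and treated groups received etoposide, a topoisomerase II poison, for 24 hours at the inhibitory concentration (IC50) of that line, so the dose differed between lines. Each library pooled 3 culture wells, and no source used here says that the 3 libraries of a group came from separate days, so p-values measure the spread between these libraries. As background, THP-1, NOMO-1, MOLM-13, MV-4-11 and MONO-MAC-6 carry KMT2A fusions, OCI-AML3 an NPM1 mutation, KASUMI-1 the RUNX1-RUNX1T1 fusion and NB-4 the PML-RARA fusion, while F-36P is an erythroleukemia line. Each line is a single culture-adapted clone or population, and lines were not grouped by lesion in any test.

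Libraries held 17997404 to 24101670 reads on genes, with a median of 20241014. A count of 0 over the 3 libraries of a group allowed a level of up to 0.0426 to 0.0528 CPM (reads of a gene scaled to the same total of reads on genes in each library), which covers counting error only. The summed level of 4 leukocyte markers (PTPRC, SPI1, CD33 and CORO1A) lay between 657 CPM in KASUMI-1 and 1801 CPM in OCI-AML2, and that of 4 fibroblast markers did not pass 2.3 CPM in any line. The 5 erythroid markers summed to 6220 CPM in F-36P and had a median over the lines of 1.09 CPM. Of the 2 T cell markers, CD3D reached 159 CPM in NOMO-1, where CD3E was at 3.36 CPM. Of the 4 epithelial markers, EPCAM reached 82.8 CPM in KASUMI-1, where KRT18 and KRT19 were at 0 and CDH1 at 0.0561 CPM. KRT18 was at 44.5 CPM in NOMO-1 and CDH1 at 26.3 CPM in F-36P. B cell markers summed to at most 6.61 CPM and endothelial markers to at most 1.91 CPM. The cyclin-dependent kinase inhibitor gene CDKN1A, taken as the check of the treatment, rose by more than the 2-fold limit in each of the 10 lines other than OCI-AML2, where the log2 fold change was 0.73 ± 0.06 (SE). MDM2, the other gene of that check, was called higher in 3 of the 10 lines and fell in NB-4 (−0.33, adjusted p = 0.0075). The etoposide libraries of OCI-AML2 were set aside in the study for read quality, and that line is therefore given apart.

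RefSeq promoter sequences, from 250 bases before to 50 bases after the start, were at hand for 22 of the 40 genes. Those of HOXA9, HOXA10, HOXA13, HOXD13 and MEIS1 are shown as examples of genes whose levels separated the lines or fell after etoposide. PBX3 and HOXA11 also fell in 5 lines each, and their windows are not shown. Each is written 5′ to 3′ on the strand of the gene (GRCh38.p14), with CCAAT and TATAAA on either strand in capitals. The windows are chr7:27165488-27165787 (minus strand) for HOXA9, chr7:27179812-27180111 (minus) for HOXA10, chr7:27200042-27200341 (minus) for HOXA13, chr2:176092471-176092770 (plus) for HOXD13 and chr2:66434875-66435174 (plus) for MEIS1.
HOXA9: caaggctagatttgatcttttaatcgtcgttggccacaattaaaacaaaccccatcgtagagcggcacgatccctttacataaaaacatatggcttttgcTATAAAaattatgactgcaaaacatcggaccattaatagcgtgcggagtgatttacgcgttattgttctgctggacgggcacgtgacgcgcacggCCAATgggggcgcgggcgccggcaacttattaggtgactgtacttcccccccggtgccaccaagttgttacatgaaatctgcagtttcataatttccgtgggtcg
HOXA10: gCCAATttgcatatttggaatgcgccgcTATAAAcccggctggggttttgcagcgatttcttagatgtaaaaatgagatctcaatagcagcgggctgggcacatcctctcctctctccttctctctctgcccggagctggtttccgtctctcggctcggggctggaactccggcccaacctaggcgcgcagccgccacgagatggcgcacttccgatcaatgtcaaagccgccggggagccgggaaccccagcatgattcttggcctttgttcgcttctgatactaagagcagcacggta
HOXA13: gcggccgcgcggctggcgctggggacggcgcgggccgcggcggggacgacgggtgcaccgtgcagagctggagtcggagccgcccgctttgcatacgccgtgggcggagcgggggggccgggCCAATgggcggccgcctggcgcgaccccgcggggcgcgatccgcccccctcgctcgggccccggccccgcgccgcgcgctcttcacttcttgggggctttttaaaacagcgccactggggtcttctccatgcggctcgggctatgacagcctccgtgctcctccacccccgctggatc
HOXD13: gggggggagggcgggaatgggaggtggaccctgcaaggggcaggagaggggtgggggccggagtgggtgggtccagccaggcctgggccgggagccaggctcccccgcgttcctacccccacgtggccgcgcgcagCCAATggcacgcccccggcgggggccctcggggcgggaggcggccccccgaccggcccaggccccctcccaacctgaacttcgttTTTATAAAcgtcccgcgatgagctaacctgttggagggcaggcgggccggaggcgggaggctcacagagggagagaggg
MEIS1: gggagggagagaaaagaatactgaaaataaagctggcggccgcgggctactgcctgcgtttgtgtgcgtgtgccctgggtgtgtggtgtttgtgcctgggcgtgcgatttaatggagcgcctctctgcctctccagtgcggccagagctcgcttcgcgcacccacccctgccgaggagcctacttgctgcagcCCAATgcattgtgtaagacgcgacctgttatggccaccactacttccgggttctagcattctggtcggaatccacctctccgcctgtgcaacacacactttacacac

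Each of the 5 windows held 1 CCAAT match, and those of HOXA9, HOXA10 and HOXD13 also held TATAAA. In HOXD13 the capitals cover 2 overlapping TATAAA matches, 1 on each strand. CCAAT occurred in 34.6% of all 35116 promoters of this length and in 19 of the 29 promoter windows listed for HOX genes, MEIS1 and PBX3 (some genes have several annotated starts, and HOXC4 and HOXC5 have the same window, with CCAAT, which is counted for each), and TATAAA in 11.5% and 5 windows. The MEIS-type motif TGACAG was found in 15.8% of all promoters and 5 of the 29 windows, among them those of HOXA13 and PBX3, and the PBX-HOX motif TGATTNAT in 2.82% and 2 windows, those of HOXD11 and HOXA2. The HOXA13 window held 44 CpG dinucleotides, a number reached by 4.19% of all promoters, against 18 in MEIS1. The median over the 29 windows was 22 CpG and over all promoters 14. These matches describe the letters of the windows and carry no measurement of binding or methylation.

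The first question was which HOX genes each line expressed before treatment. Levels between lines are given in CPM scaled by the trimmed mean of M values (TMM) over the 33 untreated libraries, as mean ± SD of 3 libraries, and a gene was counted as present at a mean of at least 1 CPM. By this limit 113 of the gene-by-line pairs were present, and 25 of the 40 genes were present in at least 1 line. The other 15 were HOXB1, HOXC5, HOXC8, HOXC9, HOXC11, HOXC12, HOXC13 and the 8 HOXD genes below HOXD13. OCI-AML3 had 16 HOX genes present, NOMO-1 14, MOLM-13 and MONO-MAC-6 10 each, THP-1 9, NB-4 8, KASUMI-1 and OCI-AML2 7 each, HL-60 and MV-4-11 6 each and F-36P 4. All 28 genes that passed the expression filter differed among the untreated lines in an edgeR quasi-likelihood F test, but so did 99.4% of all 18130 genes tested, so this count says nothing particular about the HOX genes.

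**Figure D1:**
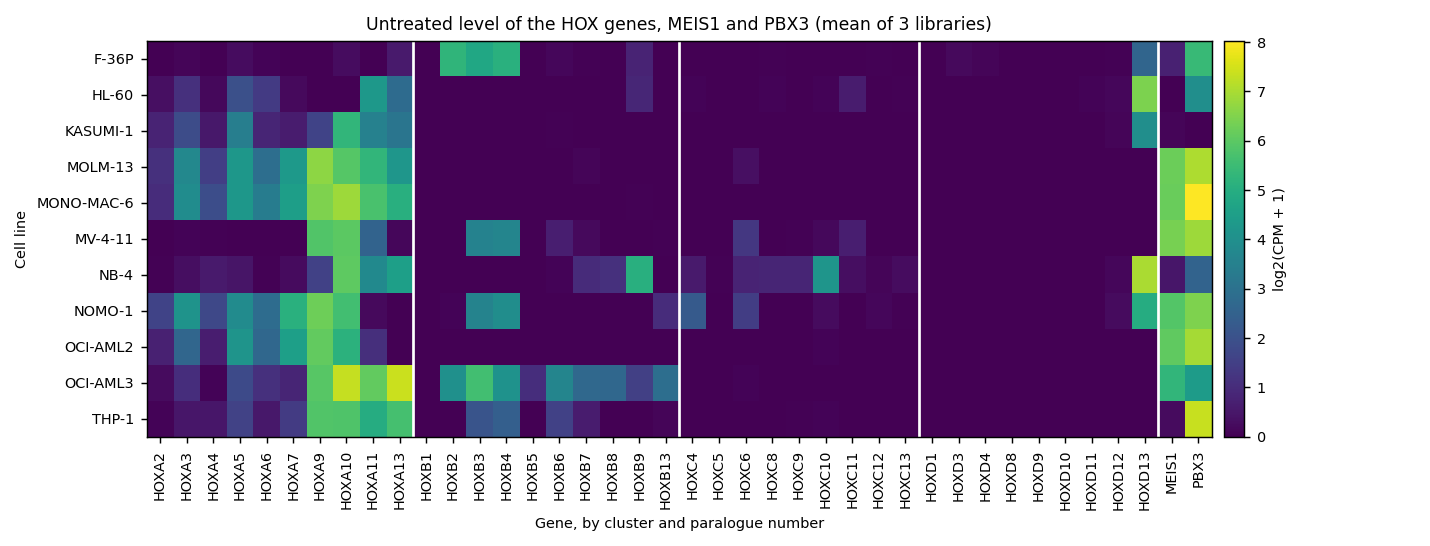
Mean untreated level of each gene (columns, ordered by cluster and paralogue number, white lines between clusters) in each cell line (rows), as colour on a log2(CPM + 1) scale over 3 libraries. HOXA genes are present along the cluster in MOLM-13 and MONO-MAC-6 (10 of 10), HOXB genes are high in F-36P and OCI-AML3, HOXC genes other than HOXC10 in NB-4 stay below 4 CPM, and HOXD13 is the HOXD gene with signal.

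To compare clusters, CPM were divided by the exon length of each gene in kilobases and summed over the genes described in a cluster. The HOXA sum was highest in OCI-AML3, at 124 ± 7.01 CPM per kilobase, and next in MONO-MAC-6, at 117 ± 2.28, and the ranges of these lines were not tested against each other. In MONO-MAC-6, MOLM-13 and OCI-AML2 the HOXA cluster held 99.9% or more of the whole HOX sum. In F-36P it held 0.896%, and there the HOXB cluster held 93.04%, with a sum of 35.6 ± 4.52. The HOXD cluster held 74.6% of the HOX sum in HL-60 and 51.1% in NB-4, with sums of 35.9 ± 2.96 and 52.5 ± 3.08. The HOXC cluster reached its highest sum in NB-4, at 8.61 ± 0.173 CPM per kilobase, and was at 2.0 ± 0.0261 in NOMO-1 and below 1 in each other line.

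HOXA9, the HOX gene most closely tied to AML, was either high or almost silent. It lay at 99.4 ± 2.11 CPM in MOLM-13, 87.5 ± 3.24 in MONO-MAC-6, 76.1 ± 5.75 in NOMO-1, 68.3 ± 3.21 in OCI-AML2, 59.9 ± 5.51 in OCI-AML3, 56.8 ± 3.66 in MV-4-11 and 56.1 ± 3.61 in THP-1. It was 2.03 ± 0.186 CPM in KASUMI-1 and 1.91 ± 0.0518 in NB-4, F-36P had 1 read over its 3 libraries, and HL-60 had 0 reads, which allows up to 0.0515 CPM. No untreated library of the 7 high lines was below 51.9 CPM, and none of the other 4 was above 2.24 CPM. Neighbouring lines in this order overlapped between NOMO-1 and OCI-AML2, from OCI-AML3 down to THP-1, between KASUMI-1 and NB-4 and between F-36P and HL-60. Of the exon bases of HOXA9, 15.9% are shared on the same strand with a HOXA10-HOXA9 read-through gene and MIR196B. Of these 2, the read-through gene alone was among the genes counted, and the HOXA9 count is less certain for the shared bases.

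HOXA10, the neighbour of HOXA9, was present in 9 lines, including KASUMI-1 (37.9 ± 2.66 CPM) and NB-4 (64.6 ± 1.76), which had little HOXA9. The highest level was 160 ± 10.7 CPM in OCI-AML3, followed by 114 ± 2.63 in MONO-MAC-6. MV-4-11, MOLM-13 and THP-1 followed NB-4 at 63.5, 59.7 and 55.5 CPM, each with a range that overlapped that of the line above it. NOMO-1 was at 47.3 ± 3.07 and OCI-AML2 at 34.7 ± 1.74 CPM. F-36P was at 0.194 ± 0.0632 CPM and HL-60 had 0 reads.

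The 5′ end of the HOXA cluster separated the lines further. HOXA13, which is known from limb and genital development, was at 166 ± 7.31 CPM in OCI-AML3, 50.02 ± 1.47 in THP-1, 32.7 ± 1.48 in MONO-MAC-6, 22.2 ± 2.5 in NB-4 and 17.7 ± 2.21 in MOLM-13. NOMO-1 and OCI-AML2 had 0 reads of HOXA13, which allows up to 0.0505 and 0.0495 CPM, although HOXA9 was at 76.1 and 68.3 CPM there. HOXA11 showed the same break, at 0.155 ± 0.116 CPM in NOMO-1 and 1.12 ± 0.367 in OCI-AML2, against 67.4 ± 1.94 in OCI-AML3 and 51.3 ± 2.58 in MONO-MAC-6. HL-60 had the opposite arrangement, with HOXA11 at 18.6 ± 1.56 and HOXA13 at 6.04 ± 0.0778 CPM beside 0 reads of HOXA9 and HOXA10.

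The middle genes HOXA3, HOXA5, HOXA6 and HOXA7 were each at 5.21 CPM or more in MOLM-13, MONO-MAC-6, NOMO-1 and OCI-AML2, where HOXA5 lay between 13.6 and 18.2 CPM and HOXA7 between 18.8 and 33.4 CPM. HOXA4 was lower in these lines, from 0.552 CPM in OCI-AML2 to 2.7 CPM in MONO-MAC-6. In MV-4-11, with HOXA9 at 56.8 and HOXA10 at 63.5 CPM, HOXA5 and HOXA7 had 0 reads and HOXA3 was at 0.0519 ± 0.0532 CPM. OCI-AML3 and THP-1 were between these patterns, with HOXA7 at 0.782 ± 0.0813 and 1.61 ± 0.126 CPM.

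MEIS1 followed the same divide as HOXA9 with 1 exception. It was at 82.97 ± 4.2 CPM in MV-4-11, 73.4 ± 0.993 in MOLM-13, 72.5 ± 1.56 in MONO-MAC-6, 66.7 ± 3.19 in OCI-AML2, 57.4 ± 2.72 in NOMO-1 and 37.6 ± 1.91 in OCI-AML3. THP-1, with HOXA9 at 56.1 CPM, had 0.185 ± 0.0307 CPM of MEIS1 from 11 reads. F-36P was at 0.655 ± 0.113, NB-4 at 0.387 ± 0.23 and KASUMI-1 at 0.0732 ± 0.0863 CPM, and HL-60 had 0 reads. The lowest library of the 6 high lines was at 35.4 CPM and the highest of the other 5 at 0.775 CPM. At a limit of 10 CPM, chosen after the values were seen, 6 lines were high in both HOXA9 and MEIS1, and all 7 HOXA9-high lines were high in PBX3.

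PBX3, the PBX family member most linked to HOXA9 in leukemia, spanned a wide range. It was at 260 ± 13.5 CPM in MONO-MAC-6, 162 ± 5.56 in THP-1, 130 ± 3.71 in MOLM-13, 121 ± 1.86 in OCI-AML2, 114 ± 1.97 in MV-4-11 and 88.4 ± 3.21 in NOMO-1. F-36P (41.3 ± 2.47), OCI-AML3 (20.1 ± 1.13), HL-60 (14.8 ± 0.599) and NB-4 (4.82 ± 1.37) were lower, and KASUMI-1 had 1 read over 3 libraries. No neighbouring lines in this order overlapped. Genes can be compared per kilobase of exon, here by the highest line of each gene. PBX3 in MONO-MAC-6 (53.0) and HOXD13 in NB-4 (52.4) were then the highest. HOXA10 in OCI-AML3 (43.2) followed, and then HOXA9 in MOLM-13 and HOXA13 in OCI-AML3 (32.8 each). MEIS1, whose exons span many more bases, did not exceed 7.58 CPM per kilobase.

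Among the HOXB genes, HOXB3 and HOXB4, known from hematopoietic stem cells, were present together in F-36P, MV-4-11, NOMO-1, OCI-AML3 and THP-1 and had at most 1 read in each of the other 6 lines. HOXB4 was at 33.02 ± 5.56 CPM in F-36P, 16.2 ± 0.71 in OCI-AML3, 14.3 ± 2.19 in NOMO-1, 11.7 ± 0.376 in MV-4-11 and 4.36 ± 0.412 in THP-1. HOXB2 was limited to F-36P (37.2 ± 3.22 CPM) and OCI-AML3 (15.3 ± 1.46), apart from a trace in NOMO-1. In OCI-AML3 each HOXB gene except HOXB1 was present, from HOXB5 at 1.08 ± 0.324 to HOXB3 at 47.2 ± 0.44 CPM. In NB-4, HOXB9 was at 32.2 ± 9.69 CPM, beside HOXB8 at 1.15 ± 0.522 and HOXB7 at 0.992 ± 0.301 CPM, and HOXB2, HOXB3 and HOXB4 had 0 reads.

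HOXC genes were scarce. HOXC10 was at 17.1 ± 0.243 CPM in NB-4 and did not exceed 0.171 CPM in another line. HOXC4 was present in NOMO-1 (3.79 ± 0.139 CPM), and HOXC6 in NOMO-1 (1.75 ± 0.0986) and MV-4-11 (1.49 ± 0.144). HOXC4 and HOXC6 share 17.5% and 16.1% of their exon bases with other genes on the same strand and HOXC5 shares 67.3%, so their counts are less certain.

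Of the 9 HOXD genes, HOXD13, the 5′-most, was present and the others were not. HOXD13 was at 127 ± 7.42 CPM in NB-4, 86.5 ± 7.14 in HL-60, 30.1 ± 2.84 in NOMO-1, 14.7 ± 2.28 in KASUMI-1 and 5.18 ± 1.08 in F-36P. It had 1 read in OCI-AML2 and 0 reads in THP-1, OCI-AML3, MOLM-13, MV-4-11 and MONO-MAC-6. The neighbouring HOXD12 did not pass 0.172 CPM, and HOXD9 had 0 reads in all 11 untreated lines. NOMO-1 was the 1 line above 10 CPM in both HOXA9 and HOXD13.

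The noncoding transcripts of the clusters were read from a list of 18 genes. HOXA10-AS was between 3.9 and 8.74 CPM in the 7 lines high in HOXA9 and did not pass 0.0187 CPM in the other 4. HOTTIP, transcribed from the 5′ end of the cluster beside HOXA13, was highest in OCI-AML3 at 51.2 CPM, followed by NB-4 at 9.61 and THP-1 at 7.89. HOXB-AS3 was at 46.9 CPM in OCI-AML3 and at most 0.103 CPM elsewhere. HAGLR, from the HOXD cluster, was at 5.65 CPM in HL-60. Whether the deposited counts used the strand is not given in the sources used here, so reads of a HOX gene and of its antisense partner may not be separated where they overlap.

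Other TALE genes were read from a list of 7. PBX2 lay between 17.5 and 58.7 CPM and PKNOX1 between 20.6 and 44.5 CPM over the 11 lines, and MEIS2 between 3.23 CPM in OCI-AML3 and 65.4 CPM in F-36P. TGIF1 lay between 6.86 and 48.3 CPM. MEIS3 ranged from 0 in KASUMI-1 to 9.63 CPM in NOMO-1, PBX4 from 0 in HL-60 to 2.75 CPM in KASUMI-1, and PKNOX2 did not pass 0.751 CPM. KASUMI-1, with 1 read of PBX3, had 58.7 CPM of PBX2, the highest PBX2 level of the 11 lines.

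The second question was whether etoposide changed these genes within a line. CPM were here scaled by TMM within the 6 libraries of a line, and each line was tested with edgeR's quasi-likelihood test over all genes. A gene is said to have risen or fallen at a false discovery rate (FDR) below 0.05, and to be called where the change also exceeded 2-fold. Of 400 gene-by-line pairs in 10 lines, 131 passed the filter on low counts and were tested. Of these, 22 were called higher (all genes of the 10 lines together: 11.1%) and 6 lower (3.96%). Without the fold limit 32 rose (all tests: 27.7%) and 40 fell (24.4%). The larger changes were mostly increases, which also held for all genes. Whether the share that fell differed from that of all genes was not tested. The median log2 fold change over the 131 tests was −0.06, and that of all genes lay between −0.03 and 0.09 in the 10 lines. A pair that passed the filter only through its treated libraries had to be higher there. The count of increases is therefore not evidence about the gene family. Pairs too low to pass on their untreated libraries included HOXB5, HOXB6, HOXC12 and HOXD3 in F-36P, HOXB6 in KASUMI-1 and HOXC12 in NOMO-1. In NB-4 they included HOXA3, HOXA7, HOXC4, HOXC13 and MEIS1. With genes limited to a mean of at least 5 CPM, 2 were called higher and 4 lower, since most increases were of genes with few reads. Without F-36P, 17 were called higher and 6 lower. Shares of all genes under these settings are not given here, so these counts do not set the family apart from other genes.

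**Figure D2:**
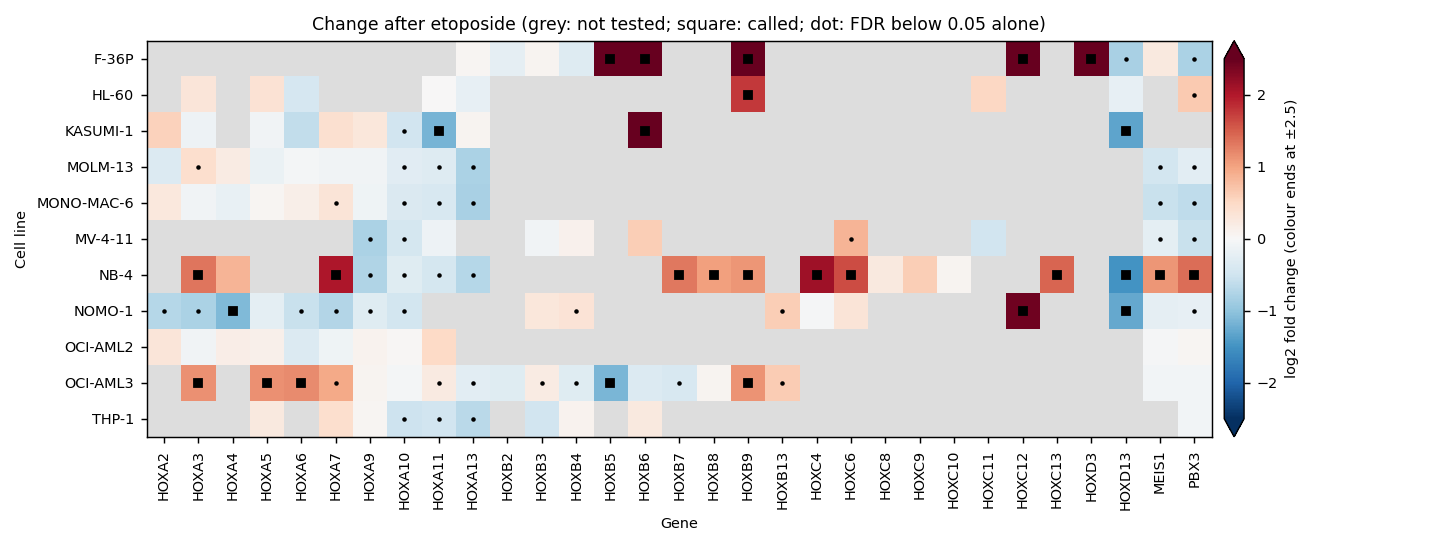
Log2 fold change after etoposide for each gene tested in at least 1 line (columns) and each cell line (rows); grey marks pairs that were not tested, squares mark calls, and dots mark an FDR below 0.05 with less than 2-fold change. NB-4 holds 10 increases and 1 decrease that were called, HOXA10 is blue in each of the 8 lines tested other than OCI-AML2, and the OCI-AML2 row holds no mark.

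The lines differed in how many of these genes were called. Higher calls in NB-4, F-36P, KASUMI-1 and NOMO-1 included genes that passed the filter through their treated libraries. The shares called higher in these lines are therefore not evidence about the gene family. In NB-4, 10 of 19 tested were higher (all genes: 13.2%) and 1 lower (4.82%). In F-36P, 5 of 12 were higher (24.3%) and 0 lower (6.67%). In OCI-AML3, 4 of 19 were higher (7.18%) and 1 lower (1.36%). KASUMI-1 had 1 of 11 higher (14.6%) and 2 lower (6.52%), and NOMO-1 had 1 of 17 higher (8.34%) and 2 lower (4.43%). HL-60 had 1 of 9 higher (5.34%) and 0 lower (1.24%). MOLM-13 had 0 of 12 in either direction (8.59% higher and 3.37% lower), MONO-MAC-6 0 of 12 (8.53% and 4.47%), MV-4-11 0 of 10 (12.5% and 2.63%) and THP-1 0 of 10 (6.38% and 3.46%). DESeq2 also called 0 in these 4 lines, while at an unadjusted edgeR p below 0.05 there were 6, 6, 5 and 4 genes. Among the lower changes, 3 genes in F-36P and 1 in HL-60 were at an unadjusted edgeR p below 0.05, and DESeq2 called 0 lower in both. In OCI-AML2, 0 of 11 were called (all genes: 0% higher and 0% lower), DESeq2 called 0, and 1 gene was at an unadjusted edgeR p below 0.05.

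HOXA9 was not called in any line. In MV-4-11 its untreated libraries were at 58.7, 64.8 and 58.2 CPM and its etoposide libraries at 38.2, 30.8 and 36.1 CPM. The groups did not overlap, and the log2 fold change was −0.79 ± 0.08 (SE, adjusted p = 1.37e-08). HOXA9 also fell in NOMO-1, from 77.3, 89.1 and 84.4 to 72.5, 63.8 and 66.8 CPM (log2 fold change −0.30), and in NB-4, where it was low, from 2.07, 2.0 and 2.05 to 1.42, 1.27 and 0.91 CPM (−0.76). In MOLM-13 (100, 94.8 and 95.8 against 99.04, 83.5 and 86.9 CPM), MONO-MAC-6, OCI-AML3 and THP-1 the groups overlapped and the test was not passed.

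HOXA10 had a negative log2 fold change in each of the 8 lines tested, from −0.51 to −0.05, and fell in 7 of them, each by less than 2-fold. In MONO-MAC-6 the untreated libraries were at 124, 118 and 121 CPM and the etoposide libraries at 94.0, 93.9 and 93.3 CPM. The largest fall was in THP-1, from 54.7, 59.97 and 56.8 to 39.0, 47.4 and 33.8 CPM (log2 fold change −0.51 ± 0.14, adjusted p = 0.00834). In OCI-AML3, with the highest level, HOXA10 went from 162, 164 and 150 to 159, 143 and 159 CPM, which overlapped. The direction in the 8 lines was the same with the other scalings tried.

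MEIS1 fell in MOLM-13, MONO-MAC-6 and MV-4-11. In MONO-MAC-6 it went from 78.4, 74.9 and 76.6 to 54.1, 51.2 and 50.03 CPM (log2 fold change −0.56 ± 0.05, adjusted p = 3.08e-06), and in MOLM-13 from 73.3, 70.7 and 70.5 to 52.2, 49.2 and 53.5 CPM (−0.45 ± 0.07). In MV-4-11 the levels were 86.7, 93.3 and 85.6 before and 76.4, 73.8 and 73.9 CPM after (−0.25 ± 0.06). These 3 lines did not overlap between groups. OCI-AML3 overlapped, at 38.4, 37.7 and 35.8 against 37.8, 35.7 and 34.4 CPM, and NOMO-1 did not pass the test (adjusted p = 0.0642).

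PBX3 fell in 5 lines and rose in 2. The falls were in F-36P (48.95, 45.5 and 43.4 to 25.1, 24.5 and 24.2 CPM, log2 fold change −0.79 ± 0.11), MONO-MAC-6 (292, 263 and 269 to 176, 176 and 175 CPM, −0.64 ± 0.05), MV-4-11 (123, 119 and 123 to 86.9, 79.2 and 84.3 CPM, −0.55 ± 0.06), MOLM-13 (−0.27) and NOMO-1 (−0.21). The rises were in NB-4, where PBX3 was called higher (5.19, 3.66 and 6.53 to 14.1, 13.7 and 12.6 CPM, 1.39 ± 0.17, adjusted p = 6.66e-06), and HL-60 (15.5, 16.6 and 16.2 to 24.3, 21.7 and 29.6 CPM, 0.65 ± 0.13). PBX3 levels before treatment were lower in HL-60 and NB-4 than in each line where it fell. In THP-1 and OCI-AML3 the groups overlapped.

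**Figure D3:**
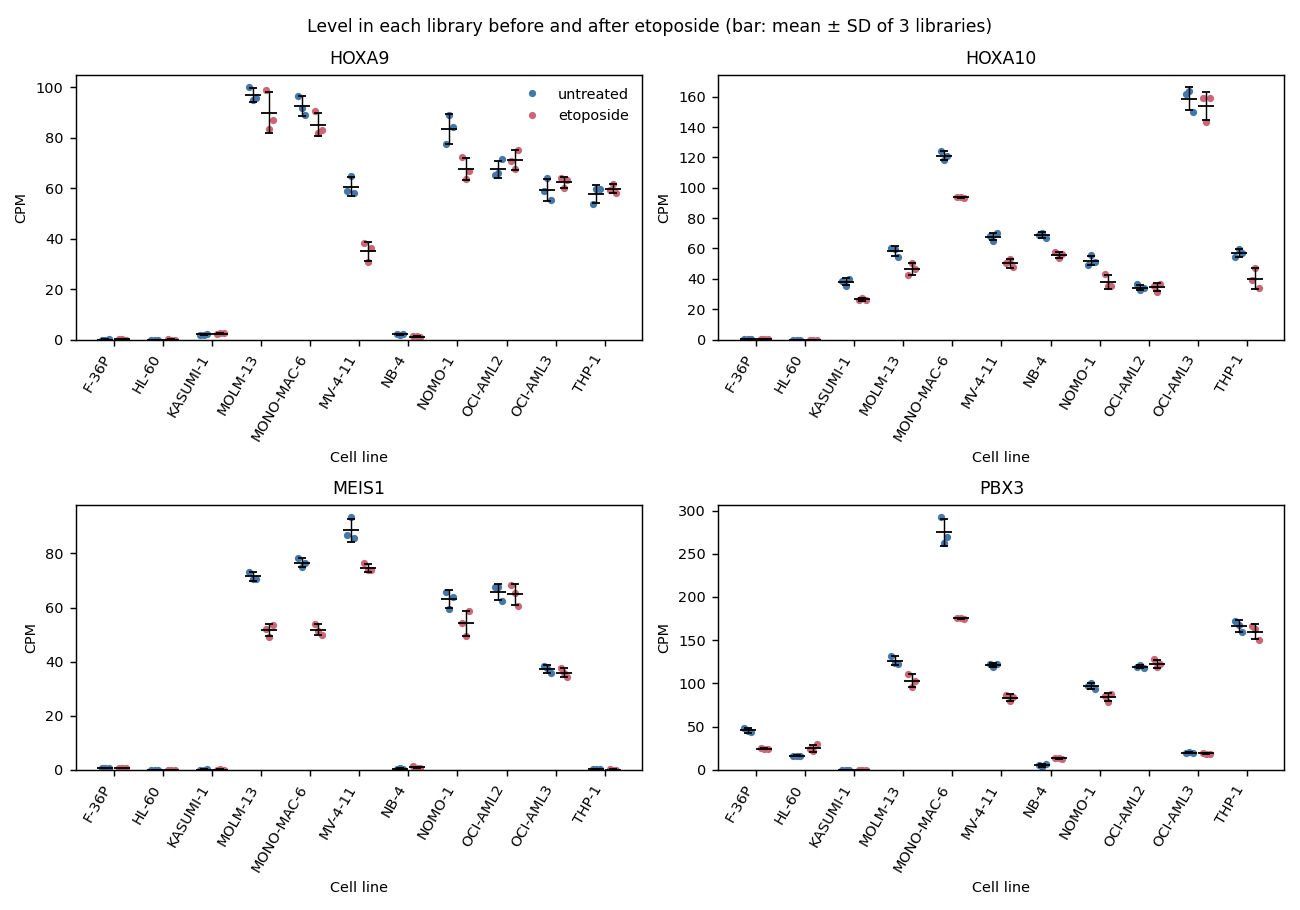
CPM of HOXA9, HOXA10, MEIS1 and PBX3 in each library (points; blue untreated, red etoposide) by cell line, with black bars for the mean ± SD of 3 libraries, on linear axes from 0. HOXA10 after etoposide lies below the untreated libraries in 7 lines, MEIS1 does so in MV-4-11, MOLM-13, MONO-MAC-6 and, narrowly, NOMO-1, and PBX3 in NB-4 and HL-60 lies above.

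HOXA13, at the 5′ end of its cluster, fell in each of the 5 lines where its untreated level was above 10 CPM. In MONO-MAC-6 it fell from 36.5, 33.7 and 33.3 to 20.5, 17.5 and 20.4 CPM (log2 fold change −0.82 ± 0.08), in MOLM-13 from 19.9, 16.6 and 15.4 to 9.92, 10.6 and 8.67 CPM (−0.80 ± 0.13), in NB-4 from 26.1, 21.2 and 23.6 to 16.96, 11.9 and 14.5 CPM (−0.71 ± 0.13) and in THP-1 from 50.5, 51.2 and 52.8 to 31.8, 30.9 and 34.5 CPM (−0.67 ± 0.12). OCI-AML3 fell by less, from 162, 170 and 162 to 144, 134 and 138 CPM (−0.26 ± 0.06). HL-60, KASUMI-1 and F-36P, with levels under 10 CPM, did not pass the test.

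HOXA11 fell in 5 lines and rose in OCI-AML3. It was called in KASUMI-1, from 9.91, 9.72 and 11.97 to 4.62, 4.91 and 3.97 CPM (log2 fold change −1.17 ± 0.14, adjusted p = 7.60e-05), a call lost by a small margin at the 2-fold limit when libraries were scaled by size alone. The falls in THP-1 (−0.47), NB-4 (−0.44), MONO-MAC-6 (−0.41) and MOLM-13 (−0.32) were smaller. In OCI-AML3 HOXA11 went from 66.9, 67.6 and 66.2 to 74.7, 77.7 and 83.3 CPM (0.23 ± 0.07).

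HOXD13 had a negative log2 fold change in each of the 5 lines that expressed it. It was called lower in NB-4, from 131, 129 and 144 to 52.5, 46.7 and 44.8 CPM (−1.49 ± 0.09, adjusted p = 5.52e-09), in KASUMI-1, from 14.4, 12.8 and 17.1 to 5.82, 5.42 and 5.82 CPM (−1.32 ± 0.13), and in NOMO-1, from 29.9, 35.8 and 33.4 to 14.4, 11.6 and 14.6 CPM (−1.28 ± 0.12). In F-36P it fell from 6.91, 5.84 and 4.52 to 3.55, 2.67 and 2.85 CPM (−0.81 ± 0.20), and was called at −1.05 without untreated replicate 3. In HL-60, where the level was 102, 86.0 and 93.5 before and 84.5, 77.7 and 82.1 CPM after, the change of −0.20 ± 0.09 did not pass the test (adjusted p = 0.114).

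**Figure D4:**
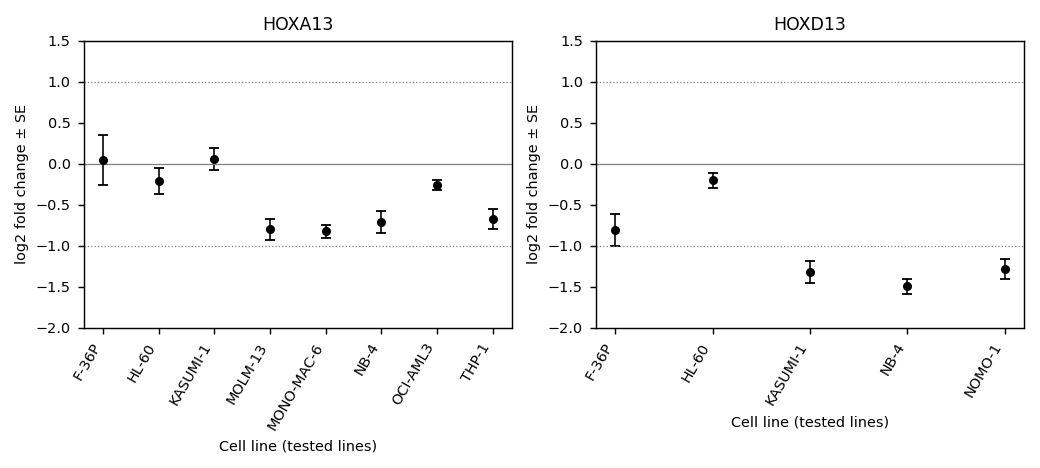
Log2 fold change after etoposide ± SE (edgeR, 3 against 3 libraries) of HOXA13 and HOXD13 in each line where the gene was tested; dotted lines mark a 2-fold change. HOXA13 lies below 0 by more than its SE in 6 lines, and HOXD13 lies below 0 in its 5 lines, from −1.49 in NB-4 to −0.20 in HL-60.

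HOXA3, HOXA6 and HOXA7 fell in NOMO-1 and rose in OCI-AML3. In NOMO-1, HOXA4 was called lower, from 2.56, 2.19 and 2.97 to 1.29, 1.04 and 1.21 CPM (log2 fold change −1.11 ± 0.22, adjusted p = 0.00109), and HOXA3 (−0.79), HOXA7 (−0.74), HOXA2 (−0.71) and HOXA6 (−0.56) fell, while HOXA5 was at −0.25 (adjusted p = 0.0513). In OCI-AML3, HOXA6 (1.18), HOXA3 (1.15) and HOXA5 (1.14) were called higher and HOXA7 (0.94) rose, and HOXA4 was not tested. HOXA3 there went from 1.08, 1.12 and 1.0 to 2.8, 1.85 and 2.47 CPM, while in NOMO-1 it went from 16.1, 17.4 and 20.4 to 11.3, 9.5 and 10.3 CPM. The edgeR interaction test over 10 lines, which does not test this pair of lines alone, was passed by HOXA3 (adjusted p = 1.74e-08), HOXA5 (2.89e-07), HOXA6 (1.17e-05) and HOXA7 (5.13e-08). HOXA6 in OCI-AML3 dropped to 0.96 without untreated replicate 3, and HOXA7 was called there at 1.11 without etoposide replicate 2. Of the exon bases of HOXA4, 31.3% are shared with another annotated gene on the same strand.

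HOXB9 was called higher in each of the 4 lines where it was tested. It went from 0.864, 0.825 and 0.836 to 5.84, 6.37 and 5.66 CPM in F-36P (log2 fold change 2.92 ± 0.19, adjusted p = 2.51e-06) and from 0.629, 1.39 and 0.624 to 2.6, 1.99 and 4.47 CPM in HL-60 (1.77 ± 0.36). In NB-4 it went from 23.9, 34.03 and 44.8 to 69.4, 72.2 and 78.1 CPM (1.10 ± 0.16), with a wide spread before treatment, and in OCI-AML3 from 2.2, 1.91 and 1.39 to 4.77, 3.39 and 3.89 CPM (1.13 ± 0.21). The groups did not overlap in any of the 4. The NB-4 value was 0.89 without untreated replicate 1, and the OCI-AML3 value was 0.94 without untreated replicate 3 and 0.98 without etoposide replicate 1.

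HOXB5 and HOXB6 were low before treatment where they were called higher, and passed the filter there through their treated libraries. In F-36P, HOXB5 had 1 read before and 37 after, a ratio per read on genes of 37.6 (95% exact counting interval 6.34 to 1525), and HOXB6 went from 0.185, 0.059 and 0.112 to 2.25, 2.71 and 2.48 CPM (log2 fold change 4.43 ± 0.34). In KASUMI-1, HOXB6 had 2 reads before and 44 after, a ratio of 21.5 (5.62 to 183). In OCI-AML3 HOXB5 was called lower, from 1.27, 1.22 and 0.717 to 0.327, 0.452 and 0.663 CPM (−1.14 ± 0.35, adjusted p = 0.0292), a call lost without untreated replicate 1 or 2 or etoposide replicate 1 or 2. HOXB4 and HOXB7 fell there (−0.31 and −0.41), HOXB3 rose (0.20) and HOXB13 rose (0.63). HOXB2, HOXB3 and HOXB4 in F-36P, their line of high HOXB expression, did not pass the test, at −0.22, 0.07 and −0.32.

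HOXC12 was called higher in F-36P, with 2 reads before and 122 after (ratio 61.99, 95% exact counting interval 16.8 to 518), and in NOMO-1, from 0.102, 0 and 0.216 to 0.697, 0.495 and 0.555 CPM (log2 fold change 2.43 ± 0.60). HOXD3 was called in F-36P, from 0.185, 0.295 and 0.0558 to 1.12, 1.04 and 0.874 CPM (2.58 ± 0.42). These increases stayed at or under 2.52 CPM in every library, and each of these pairs passed the filter through its treated libraries. F-36P is the line in which 24.3% of all tested genes were called higher, and the part of that general rise in these low-count increases was not tested.

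NB-4 held the largest number of calls. Besides PBX3, HOXB9 and HOXD13, they were HOXC4 (0.403, 0.443 and 0.739 to 1.69, 2.96 and 2.18 CPM, log2 fold change 2.11 ± 0.33), HOXA7 (0.252, 0.166 and 0.114 to 0.666, 1.09 and 0.5 CPM, 2.03 ± 0.49), HOXC6 (0.806, 0.665 and 0.909 to 2.71, 2.6 and 2.09 CPM, 1.63 ± 0.25), HOXC13 (1.45 ± 0.46), HOXA3 (1.34 ± 0.47), HOXB7 (0.806, 0.942 and 1.42 to 2.89, 2.41 and 2.55 CPM, 1.32 ± 0.25), MEIS1 (1.11 ± 0.43) and HOXB8 (1.02 ± 0.28). MEIS1 went from 0.403, 0.665 and 0.17 to 1.29, 0.683 and 0.728 CPM, far below its level in the MEIS1-high lines. HOXA3, HOXA7, HOXC4, HOXC13 and MEIS1 were too low in NB-4 to pass the filter on their untreated libraries alone. Their tests favoured an increase from the start. HOXC10, the HOXC gene with the highest level in NB-4, was at 18.2, 18.5 and 17.96 before and 19.4, 18.1 and 19.4 CPM after, which overlapped. Replicate numbers met the correlation limit used for pairing in NB-4, although the labels state no pairing. With the replicate number as a block the 11 calls there stood. Single libraries decided several of the weaker ones. MEIS1 was not called without untreated replicate 1 (1.09, adjusted p = 0.0768), untreated replicate 3 (0.75) or etoposide replicate 1 (0.78), HOXA3 without untreated replicate 1 (0.93) or etoposide replicate 3 (1.07), HOXC13 without untreated replicate 2 (1.14), and HOXB8 without untreated replicate 1 (0.73), untreated replicate 2 (0.98), etoposide replicate 2 (0.96) or etoposide replicate 3 (1.00). DESeq2 did not call MEIS1 (adjusted p = 0.0964), HOXA3 (0.0871) or HOXC13 (0.0704).

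**Figure D5:**
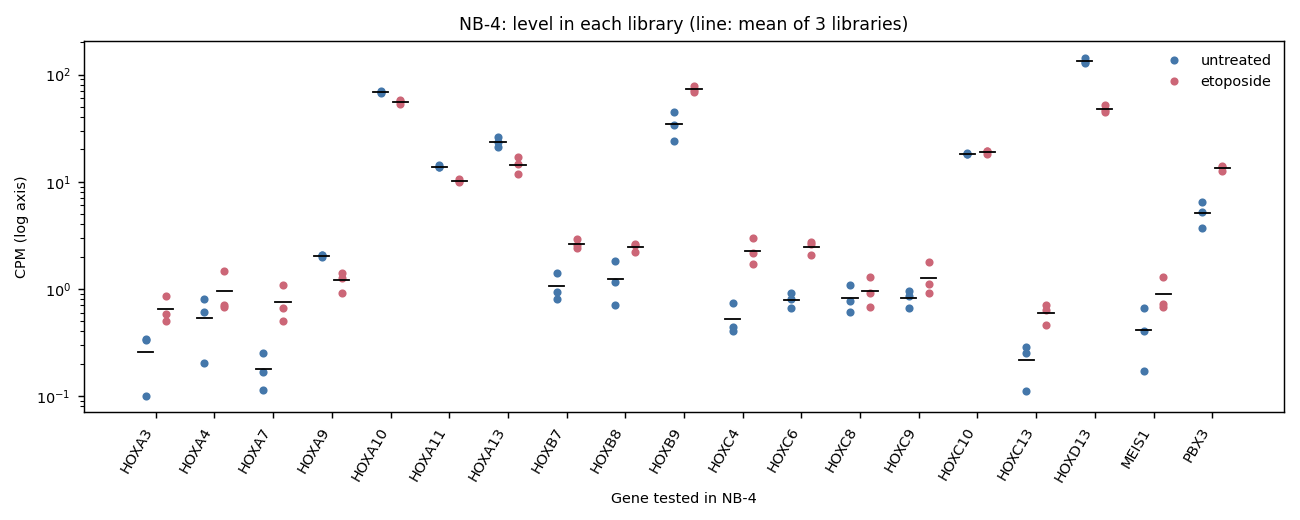
CPM on a log axis of the 19 genes tested in NB-4, in each untreated (blue) and etoposide (red) library, with a black line at the mean of 3 libraries. PBX3, HOXC4, HOXC6 and HOXB7 rise without overlap, HOXD13 falls from a mean of 135 to 48.0 CPM, and HOXC10 overlaps.

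The response differed between lines for 22 of the 31 genes tested for an interaction of line and etoposide over 10 lines (edgeR, FDR below 0.05), beside 74.5% of all 19974 genes tested, so this share is near that of genes in general. Without F-36P the number was 18. Among the genes that did not pass were HOXB2 (adjusted p = 0.978), HOXB13 (0.421) and HOXB8 (0.116).

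The other TALE genes were tested 56 times in the 10 lines, of which 9 were called higher (all genes: 11.1%) and 1 lower (3.96%), with a median log2 fold change of −0.01. MEIS3 accounted for 5 of the higher calls, in NB-4 (3 reads before and 122 after, a ratio of 39.2, 95% exact counting interval 13.1 to 193), F-36P (log2 fold change 3.75 ± 0.34), MONO-MAC-6 (2.75 ± 0.19), MV-4-11 (2.46 ± 0.33) and NOMO-1 (1.06 ± 0.11), and its untreated level did not pass 1 CPM in a line other than NOMO-1. MEIS3 was too low in NB-4, F-36P and MV-4-11 to pass the filter on its untreated libraries alone, so these tests favoured an increase. The count of higher calls is therefore not evidence about the TALE genes. PBX4 was called higher in 4 lines, with 1.66 ± 0.27 in NB-4, and MEIS2 lower in F-36P (−1.30 ± 0.13). PBX2 ranged from −0.55 to 0.35, PKNOX1 from −0.75 to 0.01 and TGIF1 from −0.52 to 0.98, with no call.

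Of the noncoding transcripts of the HOX clusters, 41 tests gave 4 higher calls (all genes: 11.1%) and 1 lower (3.96%), shares near those of genes in general, with a median log2 fold change of −0.09. HOTAIR, from the HOXC cluster, was called higher in NB-4 (0.316 to 2.05 CPM, 2.64 ± 0.38) and HL-60 (1.44 ± 0.38), and HAGLR (3.81 ± 0.41) and HOXB-AS3 (0.115 to 0.682 CPM, 2.58 ± 0.48) in F-36P. HOTAIR in NB-4 and HOXB-AS3 in F-36P were too low to pass the filter on their untreated libraries alone. The count of higher calls is therefore not evidence about these transcripts. HOXA10-AS was called lower in MV-4-11 (4.16 to 1.91 CPM, −1.12 ± 0.18), the line with the largest fall of HOXA9.

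A list of 21 genes known to regulate HOX clusters, among them KMT2A, MEN1, DOT1L and the Polycomb genes, gave 1 higher call (all genes: 11.1%) and 8 lower calls (3.96%) in 191 tests, with a median log2 fold change of −0.24. The share of lower calls was near that of genes in general. The higher call was NSD1, a histone methyltransferase gene, in F-36P, where 4 reads before treatment and 49 after were counted (0.0774 to 0.764 CPM, 3.29 ± 0.45). NSD1 passed the filter there through its treated libraries, so that test favoured an increase. NPM1 was called lower in F-36P (−1.47 ± 0.24) and MV-4-11 (1462 to 730 CPM), AFF1 in F-36P (−1.28 ± 0.12) and MLLT10 in F-36P (−1.28 ± 0.12) and KASUMI-1 (−1.08 ± 0.10). DOT1L, the histone methyltransferase recruited by KMT2A fusion proteins, was called lower in NB-4 (168 to 70.5 CPM, −1.24 ± 0.10).

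A list of 10 genes described as targets of HOXA9 and MEIS1 gave 5 higher calls (all genes: 11.1%) and 21 lower calls (3.96%) in 87 tests, with a median of −0.38. CDK6 was called lower in F-36P (log2 fold change −1.90 ± 0.16) and KASUMI-1 (−1.81 ± 0.14), SOX4 in F-36P (−1.87 ± 0.21), MONO-MAC-6 (−1.11 ± 0.07) and KASUMI-1 (−1.27 ± 0.08), and MYB in NB-4 (563 to 156 CPM, −1.85 ± 0.08), MONO-MAC-6 (−1.44 ± 0.05) and F-36P (−1.05 ± 0.13). BCL2 was called lower in NB-4 (−1.82 ± 0.09), MONO-MAC-6 (−1.45 ± 0.05), NOMO-1 (−1.28 ± 0.11) and THP-1 (−1.03 ± 0.12). The higher calls were of ID2, which encodes an inhibitor of DNA binding, in F-36P and KASUMI-1 (2.52 in each) and OCI-AML3 (1.21), and of the kinase gene PIM1 in NB-4 (1.65 ± 0.12) and HL-60 (1.41 ± 0.19). PIM1 was called lower in F-36P (646 to 276 CPM, −1.12 ± 0.11). By line, the lower calls were 5 of 8 tests in F-36P (all genes: 6.67%), 4 of 10 in KASUMI-1 (6.52%) and 4 of 8 in MONO-MAC-6 (4.47%). NB-4 held 3 of 9 (4.82%) and NOMO-1 2 of 9 (4.43%). HL-60 (1.24%), OCI-AML3 (1.36%) and THP-1 (3.46%) held 1 of 9 each. MOLM-13 (3.37%) and MV-4-11 (2.63%) held 0 of 8 each. Whether these calls relate to the level of HOXA9 or MEIS1 was not tested.

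OCI-AML2 showed no called change in any member of the HOX, MEIS1 and PBX3 set. HOXA9 was at 65.2, 66.02 and 71.4 before and 70.8, 67.5 and 75.1 CPM after etoposide, MEIS1 at 67.7, 67.5 and 62.4 against 68.5, 65.5 and 60.5 CPM, and PBX3 at 119, 121 and 118 against 128, 119 and 122 CPM. The groups overlapped for each of these genes.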

How the data were processed

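The authors aligned reads of stranded mRNA libraries to GRCh38.p7 with STAR 2.5.3a after FastQC 0.11.5 and deposited raw read counts per gene of gencode release 25; the count column used (strand setting) is not given in the sources used here. The submitters' notes also name edgeR 3.20.1. From the deposited counts, 57992 genes were used after 45 pseudoautosomal Y copies with 0 reads were left out. Gene symbols and exon lengths came from gencode release 44. Certain genes are not reported here, and the counts and sums of HOX and list genes leave them out. Groups followed the labelled cell line and treatment. Genes were filtered with filterByExpr (minimum count 10, total 15), scaled with TMM and tested in edgeR 4.0.16 (R 4.3.3) by quasi-likelihood with Benjamini-Hochberg adjustment over all genes of a fit: etoposide against untreated per line, an F test over 33 untreated libraries and a line-by-etoposide interaction over 60 libraries. OCI-AML2 was kept out of the interaction. Each test was tried on simulated counts first. The HOX, MEIS1 and PBX3 genes and the gene lists were chosen with earlier results of these data known. Genes were named in full when they were MEIS1 or PBX3, had a high level per kilobase, or were among those called in the largest number of lines; others are given by counts and ranges, and of each list up to 4 called genes with the largest changes. DOT1L, BCL2 and PIM1 were named after their values were seen. Libraries were taken as paired where the lowest correlation of same-numbered deviations was above 0.1. NB-4 alone met this limit, with correlations of 0.264, 0.218 and 0.143. MOLM-13 (lowest 0.0879) and OCI-AML2 (lowest 0.0815) were just under it. Alternatives were RLE scaling, library size alone, other filters, DESeq2 1.42.0, a replicate block, 1 fit of 60 libraries, no fold limit and leaving out each library. Fold changes of genes with few reads depend on edgeR's prior count.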

Additional observations from a re-analysis of the deposited data

Results flagged for a closer look

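For 22 of the 31 genes tested the response to etoposide differed between the 10 lines by the interaction test of edgeR. Of all 19974 genes tested 74.5% did so, and the count therefore does not set these genes apart. The adjusted p of each is given with the lowest and highest line. In the HOXA cluster these were HOXA2 (adjusted p = 0.00896, from −0.71 to 0.58 on the log2 scale), HOXA3 (1.74e-08, −0.79 to 1.34), HOXA4 (0.0012, −1.11 to 0.85), HOXA5 (2.89e-07, −0.25 to 1.14), HOXA6 (1.17e-05, −0.61 to 1.18), HOXA7 (5.13e-08, −0.74 to 2.03), HOXA9 (2.83e-07, −0.79 to 0.29), HOXA10 (0.0176, −0.51 to −0.05), HOXA11 (6.07e-08, −1.17 to 0.23) and HOXA13 (6.04e-05, −0.82 to 0.06). In the HOXB cluster they were HOXB3 (0.00488, −0.47 to 0.28), HOXB4 (0.0174, −0.32 to 0.35), HOXB5 (0.000623, −1.14 to 4.58), HOXB6 (4.10e-10, −0.35 to 4.43), HOXB7 (0.000207, −0.41 to 1.32) and HOXB9 (0.0058, 1.10 to 2.92). The others were HOXC4 (0.00108), HOXC6 (0.0194), HOXC10 (0.00168), HOXD13 (4.43e-06, −1.49 to −0.20), MEIS1 (0.00396, −0.56 to 1.11) and PBX3 (5.03e-18, −0.79 in F-36P to 1.39 in NB-4). The ranges are over lines in which the gene passed its own filter. Some highest values, among them those of HOXA3, HOXA7, HOXB5, HOXB6 and MEIS1, came from pairs too low to pass on their untreated libraries. HOXC10 passed the filter in NB-4 alone (0.06), and had few reads in the other lines.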

How the results depend on the processing

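Against the 22 higher calls, 36 were made with no filter on low counts, 43 in 1 fit of 60 libraries and 2 at a mean of at least 5 CPM; for the 6 lower calls, 40 passed with no fold limit. The first 2 settings added genes with few reads, and the 5 CPM setting tested fewer genes. With no fold limit 24.4% of all tests were lower. Shares of all genes under the other settings are not given here, so the counts show only how the calls depend on the setting. Leaving out single libraries gave 18 to 22 higher and 5 to 7 lower calls, and calls were then also made for HOXA2 in OCI-AML3 (1.71) and HOXC11 in NB-4 (1.29 and 1.55). Of the 28 calls, 19 held under every setting in which the gene was tested and 0 changed direction. Scaling by library size alone moved the median of all genes by up to 0.25 (F-36P), and 9 of 131 pairs changed sign between scalings, each a change that had not passed the test. With the replicate block, 22 higher and 5 lower calls were made, HOXB5 in OCI-AML3 being lost (adjusted p = 0.0765), where the replicate numbers did not pair the libraries. The counts for untreated differences (27 to 32), differing responses (16 to 23) and presence (95 to 132) stayed within 1.5 times of 28, 22 and 113. DESeq2 called 19 higher and 6 lower. Depth limits genes under about 1 CPM, whose values rest on few reads.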
